A study of Mus musculus with 11 samples.

Results

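Genes of Schwann cells, the glia of peripheral nerves, and of the myelin they make were followed in adventitia of the mouse abdominal aorta through 9 genes chosen by name, Mbp, Pmp22, Mal, Mag, Prx, Gjc3, Sox10, Erbb3 and S100b. Of these, 8 had at least 1 probe set annotated to them alone, together 20 of the 22626 probe sets on the array, and 7 genes with 17 probe sets were bright enough to be tested among 9055 tested genes. Adventitia is the outermost coat of an artery, made of connective tissue, through which nerves reach the vessel. The study compared it on Affymetrix arrays between diseased and healthy male mice aged 78 weeks. The first group held 4 arrays of adventitia with artery tertiary lymphoid organs (ATLO, lymphocyte aggregates beside diseased arteries) from within the atherosclerotic lesion area of B6.129P2-Apoe<tm1Unc>/J mice, which lack apolipoprotein E in every cell from birth. The second held 4 arrays of adventitia outside the lesion area of the same strain. The third held 3 arrays of wild-type adventitia, with the strain given as C57BL. The labels give a standard diet for both Apoe-deficient groups. Each Apoe-deficient sample pooled 200 sections of 10 micrometres cut out with a laser. Fat, connective tissue and lymph nodes around the aorta were taken out along with it. The series' design text speaks of mice without lesions where the tissue label says outside the lesion area, and the label was followed here. Wild-type RNA was extracted with another kit and amplified for 24 h instead of 68 h, and the wild-type titles carry the unexplained letters PNS, so genotype and protocol cannot be told apart. Whether the arrays of a group hold different animals is not stated, so p-values cover just the spread among these samples, which may be technical.

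Schwann cells wrap axons of peripheral nerves. Myelinating ones lay down compact myelin, in which basic protein and membrane proteins hold the stacked membranes together, and non-myelinating ones hold bundles of thin axons such as those of sympathetic nerves. The lineage depends on the transcription factor SOX10 and on axonal neuregulin, which signals through the receptors ERBB3 and ERBB2. Postganglionic sympathetic fibres, which supply arteries, are mostly unmyelinated, whereas larger nerve trunks nearby also carry myelinated axons.

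All 11 arrays had been scaled to the same level, with trimmed means between 500.2 and 500.3. The signal of Apoe lay between 86.9 and 150.2 in ATLO, between 45.9 and 179.7 outside the lesion and between 11969.4 and 13164.3 in wild type, so every array fitted its genotype label. Actin control probes near the 3' end were brighter than those near the 5' end, a measure of RNA quality, by ratios of 1.71 to 8.14 in ATLO, of 6.22 to 11.99 outside the lesion and of 4.19 to 5.40 in wild type.

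The main finding was that 6 of the 7 tested genes, each read by its brightest probe set, passed the test in no comparison of groups, and that 1, S100b, was lower in ATLO than outside the lesion. S100b had a log2 change of -1.35 ± 0.35 (standard error, 95% interval -2.10 to -0.59, limma, Benjamini-Hochberg adjusted p = 0.0102), which is 2.54-fold lower in ATLO. With the actin ratio as a covariate the change was -1.04 and did not pass (adjusted p = 0.143), and 8 of 9 tested adipocyte genes were lower in ATLO in the same comparison. Between ATLO and outside-lesion adventitia 34.7% of all tested genes were called at an adjusted p under 0.05. Those higher in ATLO made up 19.8% and those lower 14.9%, so 1 called gene of 7 was not above this background. Between ATLO and wild type limma called 0 of the 7 genes, with 2 at an unadjusted p under 0.05, where 27.5% of all genes were called. Between outside-lesion and wild-type adventitia limma called 0 of 7, with 0 at an unadjusted p under 0.05, where 3.08% of all genes were called. The median log2 change over the 7 genes was 0.01 in the first of these comparisons, -0.42 in the second and -0.44 in the third, beside 0.11, -0.05 and -0.12 over all genes. The last 2 comparisons share the wild-type arrays. In both of them most members lay below 0, with 7 of 7 genes for ATLO and 6 of 7 outside the lesion.

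**Figure D1:**
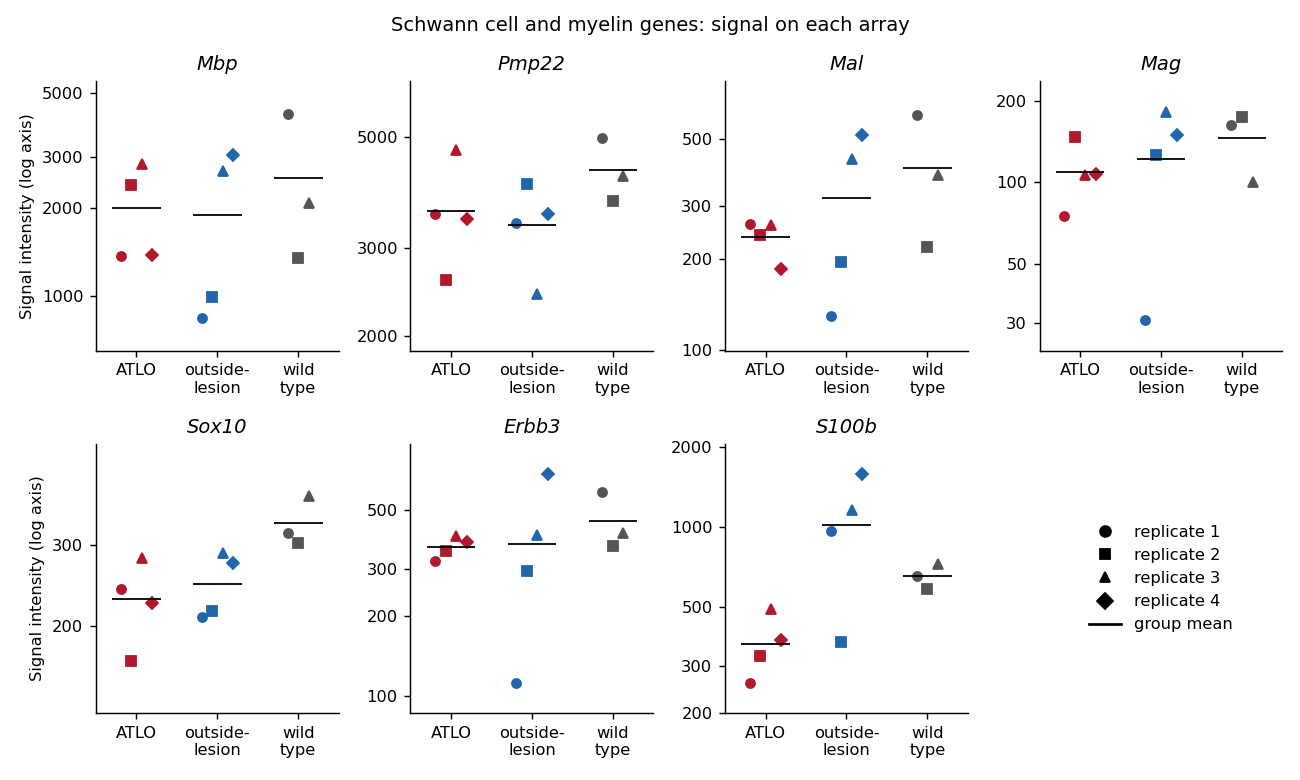
Signal intensity (log axis) of the representing probe set of each of the 7 tested genes on every array, with ATLO left, outside-lesion in the middle and wild type right. Symbols mark replicates and lines group means. Outside-lesion arrays 1 and 2 sit low for Mbp and Mal, arrays 3 and 4 high.

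The label was first set against genes that tell Schwann cells from other makers of the same proteins. Sox10 and Erbb3, shared by Schwann cells and melanocytes, were read above the 40th percentile of the array on all 11 arrays. Mog and Olig2, which mark oligodendrocytes, the myelin makers of the central nervous system, lay at or under the floor of 35.1 set on low signals on all 11 arrays. Of the 3 probe sets of Mobp, another oligodendrocyte gene, 1 was at the floor on 11 arrays, 1 on 10 and 1 on 7. Of melanocyte genes, Dct and Mitf were bright enough to be tested, and Tyr and Tyrp1, the pigment enzymes, were not. In tissue of mixed cells, fewer cells of a type and less RNA per cell cannot be told apart.

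Among the proteins of compact myelin, Mbp encodes myelin basic protein, which joins the inner faces of the membrane. Its brightest probe set, 1433532_a_at, had signals of 1375.9, 2409.7, 2847.1 and 1378.3 in ATLO. Outside the lesion the 4 arrays read 841.5, 994.7, 2695.2 and 3054.2, and the 3 wild-type arrays read 4228.6, 1348.9 and 2089.2. The groups overlapped throughout, and the outside-lesion arrays fell into a low and a high pair. The highest array was 2.07 times the lowest in ATLO, 3.63 times outside the lesion and 3.13 times in wild type. The log2 change was 0.23 for ATLO against outside-lesion (95% interval -0.73 to 1.19, limma adjusted p = 0.734), so anything from a fold of 0.602 to one of 2.28 lies inside the interval. Against wild type it was -0.27 for ATLO (95% interval -1.31 to 0.77, limma adjusted p = 0.716) and -0.50 for outside-lesion adventitia (95% interval -1.54 to 0.54, limma adjusted p = 0.561).

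Mbp was read by 8 probe sets, which allowed a comparison within the gene. Outside-lesion arrays 3 and 4 lay above arrays 1 and 2 in 6 others as well. The pairs were not clearly separated in 1451961_a_at (132.8 and 69.9 against 176.0 and 187.0). Nor were they in 1425263_a_at (11.5 and 56.6 against 132.5 and 86.8). Probe set 1456228_x_at read 677.2 and 601.5 on arrays 1 and 2 against 1932.9 and 2382.3 on arrays 3 and 4, and 1454651_x_at read 119.2 and 108.4 against 485.0 and 561.7. The probe set 1425264_s_at did not show this pattern. It had signals of 507.7, 677.1, 451.8 and 569.8 in ATLO, of 386.8, 342.1, 477.6 and 282.6 outside the lesion, and of 396.8, 463.2 and 457.8 in wild type. It was higher in ATLO than outside the lesion (log2 change 0.58 ± 0.19, limma adjusted p = 0.0299), though 1 outside-lesion array lay inside the ATLO range. The letter s in such a name marks probes that match several transcripts, and x marks probes that can bind related sequences. The Mbp gene also gives longer transcripts known as golli, which in mouse are made in immune cells as well, and which transcripts each probe set reads is not given in the table used here. T cell genes differed strongly between the same groups, as given below, and their part in this probe set was not tested.

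Against wild type the probe sets of Mbp had different signs in ATLO, with 2 of 8 above 0. Probe set 1451961_a_at had signals of 120.5, 148.8, 91.0 and 186.7 in ATLO and of 440.1, 203.3 and 227.0 in wild type, without overlap. Its log2 change was -1.05 ± 0.38 (limma adjusted p = 0.0595), and for outside-lesion against wild type it was -1.05 ± 0.38 (limma adjusted p = 0.140), so neither passed. The log2 changes of the 8 probe sets ran from -0.00104 to 0.58 between ATLO and outside-lesion adventitia. They ran from -1.05 to 0.32 when ATLO was set against wild type, and from -1.05 to -0.02 when outside-lesion adventitia was. Over all tested probe sets of the 7 genes, 3 of 17 were called for ATLO against outside-lesion, 1 of Mbp and 2 of S100b, where 31.9% of all probe sets were. Between ATLO and wild type limma called 0 of 17 (3 at an unadjusted p under 0.05), where 26.8% of all were, and between outside-lesion and wild-type arrays 0 of 17 (3 at an unadjusted p under 0.05), where 3.26% were.

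**Figure D2:**
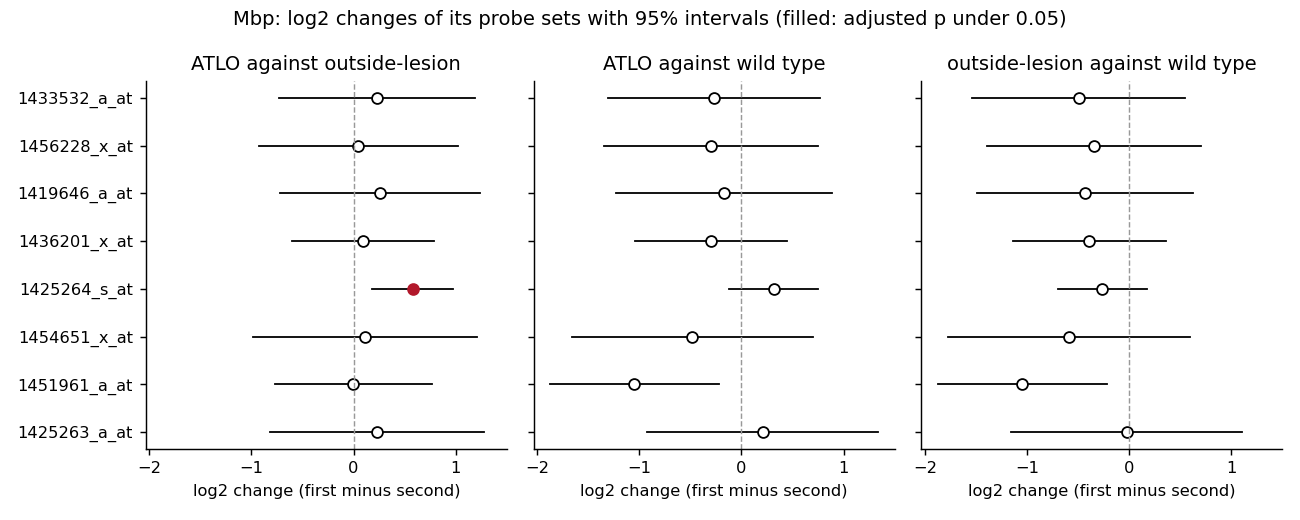
log2 changes of the 8 Mbp probe sets with 95% intervals in the 3 comparisons, brightest probe set on top. Filled points passed the test. The probe set ending in s is the filled one, at 0.58 for ATLO against outside-lesion.

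Pmp22 encodes a tetraspan membrane protein of compact myelin whose dosage underlies hereditary neuropathies, and it is also made by fibroblasts and other cells. Its signals were 3505.0, 2586.8, 4710.8 and 3419.0 in ATLO, 3355.6, 4018.2, 2425.0 and 3501.2 outside the lesion, and 4981.4, 3729.4 and 4178.3 in wild type. The arrays of all groups lay in one band, and no outside-lesion array stood apart. Its intervals were among the narrowest of the 7 genes, with a log2 change of 0.09 for ATLO against outside-lesion (95% interval -0.34 to 0.52, limma adjusted p = 0.776). The fold lay between 0.787 and 1.43 in that interval. Of 9 tested fibroblast genes, 6 were called higher in ATLO than outside the lesion (median log2 change 1.22), where 19.8% of all genes were higher. The part of fibroblasts in the Pmp22 signal was not tested. Against wild type, Pmp22 had log2 changes of -0.30 ± 0.22 in ATLO (limma adjusted p = 0.334) and -0.38 ± 0.22 outside the lesion (limma adjusted p = 0.305).

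Mal encodes a small proteolipid that sorts membrane to myelin and is also made by T cells. Its brighter probe set read 261.2, 239.6, 259.8 and 184.7 in ATLO, 128.9, 195.4, 430.7 and 515.3 outside the lesion, and 599.3, 219.8 and 380.8 in wild type. ATLO arrays lay close together, and the outside-lesion arrays spread on both sides of them. The log2 change was -0.22 for ATLO against outside-lesion (95% interval -1.10 to 0.65, limma adjusted p = 0.712) and -0.66 for ATLO against wild type (95% interval -1.60 to 0.29, limma adjusted p = 0.287). Its other probe set had a log2 change of 0.55 for ATLO against outside-lesion (limma adjusted p = 0.356), the opposite sign, with outside-lesion array 1 at 11.6. Of 7 tested T cell genes, 6 were higher in ATLO than outside the lesion, with Cd3d, part of the signalling complex of the T cell receptor, at a log2 change of 3.93 ± 0.51 (limma adjusted p = 9.36e-05). Their summed signal ran from 3578 to 6061 in ATLO, from 649 to 1217 outside the lesion and from 1201 to 1433 in wild type. Mal passed the test in none of the 3 comparisons.

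Mag encodes myelin-associated glycoprotein, which sits where the glial membrane faces the axon and inhibits nerve growth. It was the dimmest of the 7, above the 40th percentile of the array on 7 of 11 arrays. Its signals were 74.9, 147.5, 106.5 and 107.3 in ATLO, 30.9, 126.1, 182.5 and 150.1 outside the lesion, and 162.9, 174.8 and 100.4 in wild type. Outside-lesion array 1, at the floor, was the only one far from the rest. The log2 change of 0.01 for ATLO against outside-lesion (95% interval -0.96 to 0.99, limma adjusted p = 0.985) became -0.51 without that array (adjusted p = 0.234). Gjc3, a connexin of myelinating glia, had 1 probe set, which was under the 40th percentile on all 11 arrays and at the floor on 9, with signals from 1.9 to 42.4, and was not tested. Prx, which encodes periaxin and ties myelinating Schwann cells to their basal lamina, had no probe set annotated to it alone and was not analysed here.

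Sox10 encodes the transcription factor that Schwann cells need at every stage. Its brightest probe set read 239.9, 167.8, 281.2 and 223.6 in ATLO, 208.8, 215.8, 288.1 and 273.3 outside the lesion, and 317.5, 303.2 and 382.1 in wild type. All wild-type arrays lay above all Apoe-deficient arrays, and the 2 Apoe-deficient groups overlapped. The log2 change was -0.57 ± 0.22 for ATLO against wild type (limma adjusted p = 0.0673), and outside the lesion it was -0.45 ± 0.22 (limma adjusted p = 0.236). Neither passed, although ATLO against wild type did without ATLO array 3 (log2 change -0.68, adjusted p = 0.0452). Between ATLO and outside-lesion it was -0.12 (95% interval -0.55 to 0.31, limma adjusted p = 0.682). A second probe set, 1451689_a_at, gave no such order, with signals of 289.1, 200.2, 248.3 and 197.9 in ATLO and 230.7, 136.7 and 246.8 in wild type (log2 change 0.22 ± 0.37, limma adjusted p = 0.695). Another was above the 40th percentile on 1 array and was not tested.

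Groups of 2 of the 7 genes did not overlap between ATLO and wild type, Sox10 and S100b, where this held for 39.5% of all genes. For outside-lesion against wild type it held for 1 of 7, Sox10, where it held for 20.9% of all genes, and for ATLO against outside-lesion for 0 of 7, where it held for 33.4%.

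Erbb3 encodes the neuregulin receptor of Schwann cells. Its brighter probe set read 320.8, 351.4, 399.0 and 378.5 in ATLO, 112.1, 296.0, 401.6 and 680.5 outside the lesion, and 582.1, 366.6 and 408.3 in wild type. ATLO arrays agreed within 1.24-fold, whereas the highest outside-lesion array was 6.07 times the lowest. The log2 change was 0.23 for ATLO against outside-lesion (95% interval -0.64 to 1.09, limma adjusted p = 0.705), and -0.26 without outside-lesion array 1 (adjusted p = 0.499). Against wild type it was -0.30 ± 0.43 in ATLO (limma adjusted p = 0.647) and -0.52 ± 0.43 outside the lesion (limma adjusted p = 0.488). The second probe set of Erbb3 was at the floor on all 11 arrays and was not tested.

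S100b encodes a calcium-binding protein used as a Schwann cell marker and also known from adipocytes. Its brighter probe set read 259.4, 328.4, 490.4 and 374.9 in ATLO, 966.5, 370.0, 1157.6 and 1579.6 outside the lesion, and 657.0, 586.2 and 724.3 in wild type. All 4 ATLO arrays lay below all wild-type arrays and below 3 of the 4 outside-lesion arrays, and outside-lesion array 2 lay inside the ATLO range. The second probe set again had 3 outside-lesion arrays above all ATLO arrays, with 243.4, 168.2, 377.4 and 286.7 in ATLO against 771.2, 272.9, 834.4 and 1005.4 outside the lesion (log2 change -1.33 ± 0.35, limma adjusted p = 0.0112). With each array left out in turn, the log2 change of the brighter probe set for ATLO against outside-lesion stayed between -1.77 and -1.08, with adjusted p between 9.70e-05 and 0.0331.

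Against wild type, S100b had a log2 change of -0.89 ± 0.38 in ATLO (95% interval -1.70 to -0.07, limma adjusted p = 0.10; 0.0118 without outside-lesion array 2, which enters only through the shared spread) and of 0.46 ± 0.38 outside the lesion (95% interval -0.36 to 1.28, limma adjusted p = 0.484). Its second probe set read 333.5, 305.0 and 362.2 in wild type, with log2 changes of -0.37 ± 0.38 in ATLO (limma adjusted p = 0.503) and 0.96 ± 0.38 outside the lesion (limma adjusted p = 0.163).

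**Figure D3:**
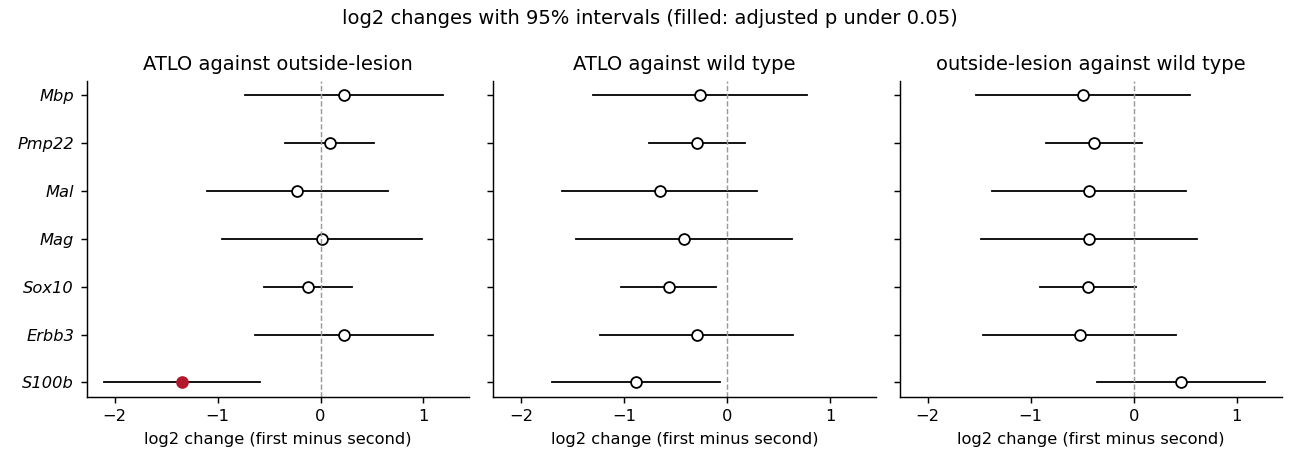
log2 changes of the 7 genes with 95% intervals in the 3 comparisons, each the first named group minus the second. The filled point, S100b at -1.35 for ATLO against outside-lesion, was the one that passed the test.

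Adipocyte genes moved between the groups beside S100b. Of 9 tested, 8 were lower in ATLO than outside the lesion, and their summed signal ran from 28236 to 80891 in ATLO, from 140321 to 217586 outside the lesion and from 80702 to 107140 in wild type. Cidea, which coats lipid droplets in brown fat cells, read 572.0, 360.1, 874.5 and 947.4 in ATLO and 15071.9, 2589.6, 15941.9 and 15744.9 outside the lesion, with outside-lesion array 2 the low one, as for S100b. Cidea was chosen after its values were seen, and the list did not move together on that array, which was the lowest of its group for 3 of the 9 genes (Cidea, Ucp1 and Pparg) and the highest for 4 (Lep, Cidec, Lipe and Retn). Ucp1, likewise picked after its values were seen, read 26124.7, 143.4, 26623.9 and 20512.9 on outside-lesion arrays 1 to 4. The adipocyte sum of array 2, 143876, lay within the range of its group, and Fabp4 (62842.6) and Adipoq (35535.2) were its largest parts. Such a sum therefore says little about the dimmer genes of the list. Of the 9054 other genes, those whose array profile was nearest to that of S100b were Pm20d1, Acot13 and Pam16. Likeness was the mean absolute difference between log2 profiles that had been centred and divided by their SD over the 11 arrays. It was 0.206, 0.222 and 0.248 SD units for these 3, beside a median of 1.16 over all genes. Pm20d1 is a secreted enzyme of thermogenic fat, Acot13 a mitochondrial thioesterase and Pam16 a part of the mitochondrial import motor. Pm20d1 passed the filter on low signals only through outside-lesion arrays 1, 3 and 4 (119.1, 235.5 and 269.2), where S100b was also high. In ATLO it read 33.3 to 52.8, near the floor of 35.1. Whether the S100b signal came from fat cells or glia was not tested.

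Several members followed each other from array to array. By the same measure Mal was the fourth nearest of 9054 genes to Mbp, and Mbp the fourth nearest to Mal, at 0.386 SD units. Erbb3 ranked 32 from Mal and 100 from Mbp, and Mag ranked 103 from Erbb3. From Mbp, Pmp22 ranked 3111 and S100b 1778. From Mal, S100b ranked 493, nearer than Mag at 660. Sox10 ranked 456 from Mal, 769 from Mbp and 792 from Erbb3. Among genes outside the 9, the nearest to Mbp were Syt17, Katnbl1 and Ncmap (0.366, 0.377 and 0.378 SD units), of which Ncmap encodes a myelin protein of peripheral nerve. Ncmap read 91.4, 188.6, 135.8 and 8.8 in ATLO, 9.5, 34.3, 113.8 and 152.0 outside the lesion, and 237.0, 17.4 and 134.7 in wild type. Nearest to Mal were Epb41l4b, Abca2 and Syt17, and nearest to Erbb3 were Epb41l4a, Gng3 and Tgif2. Sema4g, Cul2 and Serf1 were nearest to Mag, Wasl, Hs3st3b1 and Atf5 to Sox10, and Gamt, Brox and Abat to Pmp22. The profiles share the same 11 arrays, so their likeness is a description. Outside-lesion array 1, the lowest for Mbp, Mal, Erbb3 and Mag, also had the lowest median signal of all 11 arrays (151.5). Its actin ratio was 10.17, beside 6.22, 11.99 and 6.47 on outside-lesion arrays 2, 3 and 4, so the ratio did not follow the order of Mbp and Mal. The part of that array in the likeness was not tested.

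**Figure D4:**
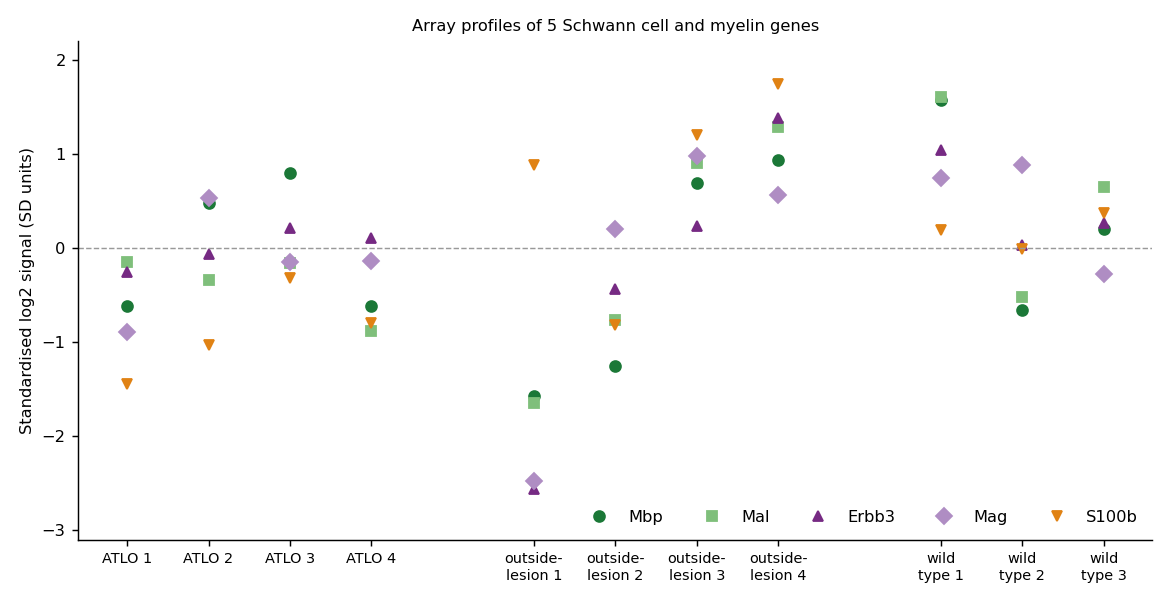
Standardised log2 signal (SD units over the 11 arrays) of Mbp, Mal, Erbb3, Mag and S100b on each array. Outside-lesion array 1 is lowest for Mbp, Mal, Erbb3 and Mag, at -1.57, -1.65, -2.56 and -2.48, whereas S100b is at 0.88 there.

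Promoter windows of Mal and Mag, and of S100b, which ranked further than they did from both Mbp and Erbb3, are shown for comparison. Each holds the 250 bases before the annotated start, from RefSeq on build GRCm38.p6, and the windows of 6 of the 9 genes were in the table used. The letters ACAAAG and ACAATG, which fit the sites bound by SOX factors, and GTGGGNG, which fits those of EGR factors such as EGR2, were searched on both strands and are in capitals. Of 32851 windows, 25.2% held at least 1 of the SOX-type motifs and 28.1% held the EGR-type motif. Mag has 3 annotated starts, and the window shown is the only one of them with both kinds of motif. Of the other Mag windows, 1 overlaps the window shown and held the same ACAAAG match, without GTGGGNG, so this is not a second site. The last held none of the motifs. Among the genes not shown, the 4 windows of Pmp22 held none of the motifs. The windows of Prx and Gjc3 each held 1 match to GTGGGNG and no SOX-type motif.
Mag (chr7:30914864-30915113, minus strand): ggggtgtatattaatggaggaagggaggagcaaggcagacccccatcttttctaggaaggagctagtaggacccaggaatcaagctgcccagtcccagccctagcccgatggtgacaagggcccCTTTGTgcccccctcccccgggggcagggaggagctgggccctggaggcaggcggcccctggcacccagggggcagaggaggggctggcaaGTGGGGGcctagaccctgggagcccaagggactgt
Mal (chr2:127656696-127656945, minus strand): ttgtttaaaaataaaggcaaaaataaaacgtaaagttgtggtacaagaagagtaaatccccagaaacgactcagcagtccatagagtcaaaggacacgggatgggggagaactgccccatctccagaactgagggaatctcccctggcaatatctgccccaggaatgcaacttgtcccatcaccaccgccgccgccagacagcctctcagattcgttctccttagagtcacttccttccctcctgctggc
S100b (chr10:76253586-76253835, plus strand): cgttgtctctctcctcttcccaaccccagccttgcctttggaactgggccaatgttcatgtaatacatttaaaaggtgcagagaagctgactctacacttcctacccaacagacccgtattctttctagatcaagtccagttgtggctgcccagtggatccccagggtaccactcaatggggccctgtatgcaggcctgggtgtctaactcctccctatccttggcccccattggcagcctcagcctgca
The Mag window held 1 match to ACAAAG, read on the other strand, and 1 match to GTGGGNG. The windows of Mal and S100b held none of the 3 motifs, which says only that these letters are not in these bases. A match is a description of sequence and not a measured site.

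Levels of neuron and axon genes differed widely between arrays of a group, in all 3 groups. The summed signal of 16 such genes, among them Th and Dbh of noradrenaline synthesis and the neurofilament Nefl, was 5095, 2399, 5868 and 8597 in ATLO. Outside the lesion it was 772, 906, 2783 and 11524, and in wild type 29673, 1386 and 4618. Within the outside-lesion group arrays 3 and 4 lay above arrays 1 and 2 both here and for Mbp and Mal. Here array 4 stood far above array 3, so the neuron sums did not form a high pair. Within wild type array 1 was highest and array 2 lowest, both here and for Mbp and Mal. In ATLO array 4 was highest in neuron genes, and for Mbp it was among the lower pair. Limma called 0 of the 16 genes in each comparison, with 1 at an unadjusted p under 0.05 for ATLO against outside-lesion and 0 in the others. The part of nerve content of each dissection in the spread of the members was not tested.

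**Figure D5:**
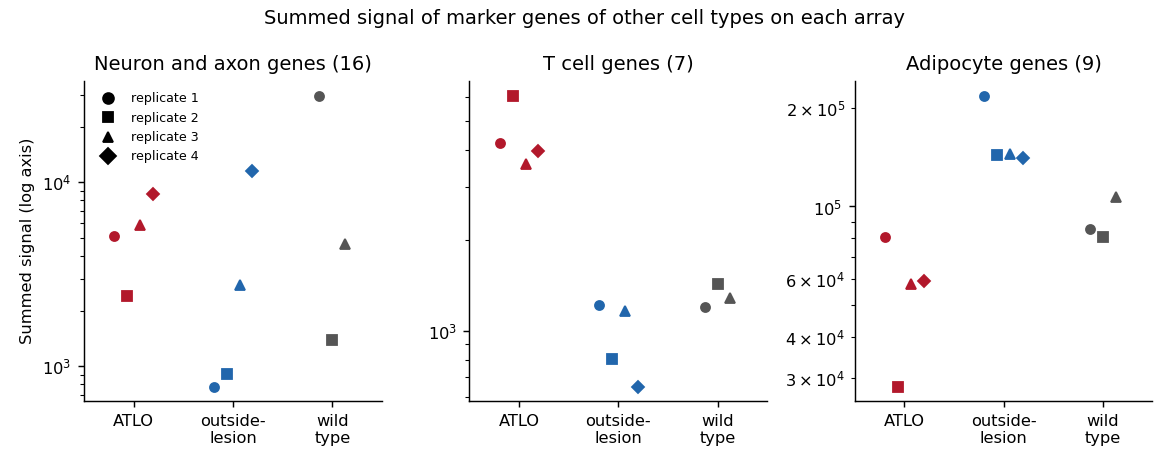
Summed signal (log axis) of 16 neuron and axon genes, 7 T cell genes and 9 adipocyte genes on each array, by group. Neuron sums run from 772 to 29673 over the 11 arrays, T cell sums are highest in the 4 ATLO arrays, and adipocyte sums are highest in the 4 outside-lesion arrays.

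A wider set of 54 other Schwann cell and myelin genes was counted beside the members, grouped by role. Of these, 35 were tested, with 5 higher and 3 lower in ATLO than outside the lesion (median log2 change 0.14), where 19.8% of all genes were higher and 14.9% lower, and 4 higher and 8 lower in ATLO than in wild type (median -0.18). Between outside-lesion and wild-type adventitia 0 were higher and 1 was lower (median -0.33). The background of all genes was 13.4% higher and 14% lower in the second comparison, and 1.68% lower in the third.

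Among 7 tested proteins of non-compact myelin and adhesion, 1 was higher and 1 lower in ATLO in both of its comparisons. Cnp, an enzyme of the cytoplasmic channels of myelin that many other cells also make, read 3952 ± 665 in ATLO (SD, n = 4) and 1963 ± 206 outside the lesion (n = 4), a log2 change of 1.0 ± 0.17 (limma adjusted p = 6.33e-04). It read 2593 ± 586 in wild type (n = 3), from which ATLO differed by a log2 change of 0.62 ± 0.19 (limma adjusted p = 0.0257). Mpzl2, an adhesion protein made mainly by epithelia and other cells, read 210 ± 24.7 in ATLO and 1083 ± 488 outside the lesion, a log2 change of -2.27 ± 0.29 (limma adjusted p = 9.05e-05). Of compact myelin proteins outside the members, Pllp, a proteolipid, was not called (log2 change 0.01 for ATLO against outside-lesion, limma adjusted p = 0.994).

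Of 4 tested genes of the dystroglycan complex, through which periaxin acts, 2 were lower in ATLO than outside the lesion and 4 lower in ATLO than in wild type. Dag1, dystroglycan itself, read 1569 ± 351 in ATLO (SD, n = 4), 2419 ± 261 outside the lesion (n = 4) and 2535 ± 245 in wild type (n = 3). Its log2 changes in ATLO were -0.65 ± 0.16 against outside-lesion (limma adjusted p = 0.00906) and -0.71 ± 0.18 against wild type (limma adjusted p = 0.0103). Utrn, utrophin, was lower in ATLO by log2 changes of -0.61 and -0.71 in the same comparisons, and Lama2, a laminin chain of basal laminae, by -0.83 against wild type. These genes are also made by muscle and other cells, and in these comparisons 8 and 6 of 9 adipocyte genes were lower too. The part of other cells was not tested.

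Of 8 tested transcription factors of the lineage, 3 were higher in ATLO than outside the lesion. Egr2, the zinc finger factor that turns on myelin genes and is also induced in activated lymphocytes, read 221 ± 51.7 in ATLO (SD, n = 4) and 90.2 ± 33.9 outside the lesion (n = 4), a log2 change of 1.35 ± 0.30 (limma adjusted p = 0.00383). It read 117 ± 14.5 in wild type (n = 3; log2 change for ATLO 0.89 ± 0.32, limma adjusted p = 0.0567). Nab2, a corepressor of EGR factors, had a log2 change of 0.74 and Yy1, a general zinc finger factor, one of 0.42 against outside-lesion. Both were also called higher in ATLO against wild type. The T cell sums given above were higher in ATLO in the same comparisons, and their part was not tested. Of 5 tested growth receptors and ligands, 0 were called for ATLO against outside-lesion by limma, with 1 at an unadjusted p under 0.05. Against wild type 1 was lower in ATLO, Dhh, the hedgehog ligand of Schwann cells that organises the nerve sheath, with 101.1 ± 30.3 in ATLO and 198 ± 30.8 in wild type (log2 change -1.01 ± 0.29, limma adjusted p = 0.0211). Erbb2, the partner of Erbb3, had log2 changes of -0.21 against outside-lesion and -0.42 against wild type and was called in neither.

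Of 6 tested enzymes of myelin lipid synthesis, Sptlc2, a subunit of the first enzyme of sphingolipid synthesis, was higher in ATLO against both other groups (log2 changes of 0.63 and 0.54). Hmgcs1, of cholesterol synthesis, was lower in ATLO than in wild type (log2 change -1.26 ± 0.41, limma adjusted p = 0.0346). Of 8 tested genes of immature, non-myelinating and repair Schwann cells, S100b was the 1 lower in ATLO than outside the lesion. Scn7a, a sodium channel relative of non-myelinating Schwann cells, was lower in ATLO than in wild type (log2 change -0.83 ± 0.25, limma adjusted p = 0.0238). Ncam1, an adhesion molecule of non-myelinating Schwann cells and of neurons, was lower outside the lesion than in wild type. It read 192.7, 18.5, 102.1 and 320.0 outside the lesion and 1670.0, 682.9 and 455.5 in wild type (log2 change -2.72 ± 0.64, limma adjusted p = 0.0392). Fabp7, of immature and satellite glia, read 300.7, 144.1, 433.4 and 788.1 in ATLO, 65.5, 62.8, 240.4 and 1609.6 outside the lesion, and 2931.4, 166.1 and 247.3 in wild type. It was called in no comparison, and its high arrays, outside-lesion 4 and wild type 1, were also those with the highest neuron sums in their groups.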

How the data were processed

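RNA of 11 samples of aortic adventitia was measured on Affymetrix arrays. The values are linear signal intensities that the authors had made with GCOS 1.4, per the submitters' processing notes, and deposited as 1 table in which each array is scaled to about the same trimmed mean. No genome build is given in the sources used here. Probe intensities were not used here, so the scaling was kept, and the number of arrays limits the precision. Of 22690 probe sets, 64 controls were left out. Of the other 22626, 20380 had 1 gene symbol in the platform annotation, 691 had several and 1555 had none, and genes were named only from probe sets with 1 symbol.

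Signals under the 20th percentile of all values (35.1) were raised to it, and log2 was taken. The 14988 probe sets above the 40th percentile of their array on at least 3 arrays were tested with limma 3.58.1 in R 4.3.3 (lmFit, eBayes with trend), with all 11 arrays in 1 fit and Benjamini-Hochberg adjustment over all tested probe sets at 0.05. A gene was represented by its probe set with the highest mean log2 signal, which gave 9055 genes. Intervals are at 95%. All members were named, together with the 3 genes of nearest array profile for each. Of the called genes of the other lists, only some were named. The members and lists were chosen with earlier results of these data known. Simulated data with known changes were used to check the fit. In the 3 comparisons, in the order given above, 54%, 52% and 38% of 2-fold changes were called. For 4-fold changes the shares were 87%, 86% and 89%. A gene that was not called may thus still differ by 2-fold. Alternatives changed the scaling, floor, filter, choice of probe set, model, covariates and arrays.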

Additional observations from a re-analysis of the deposited data

How the results depend on the processing

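S100b stayed lower in ATLO than outside the lesion in every alternative run, with log2 changes from -1.77 to -1.08 when 1 array was left out, and it lost the call only with the actin ratio as a covariate (-1.04, adjusted p = 0.143), where 0 member genes were called. Without outside-lesion replicate 2 it was -1.77. For ATLO against wild type, 1 member gene was called when only the compared groups were fitted (S100b), and between 0 and 1 when 1 array was left out. Same-numbered arrays deviated together (correlation over 0.1) in 5 of 10 pairs. Their correlations ran from -0.18 to 0.27, beside -0.20 to 0.24 for differently numbered arrays. Between ATLO and outside-lesion arrays 1 to 4 the same-numbered pairs gave 0.14, 0.07, 0.04 and 0.15. The labels state no pairing, so the main fit had no block, and these values do not settle whether the numbers pair samples. With the replicate number as a block, 2 member genes were called for ATLO against wild type (S100b at -1.03, adjusted p = 0.0365, and Sox10 at -0.59, adjusted p = 0.0476), and 189 probe sets outside-lesion against wild type. Over all probe sets, calls for ATLO against outside-lesion were 4777, and 2552 with the actin covariate. For outside-lesion against wild type they were 489, against 301 without the filter, 202 with only the compared groups, 1530 with array weights, 248 without the trend, 86 with the actin covariate and 21 to 887 with 1 array left out. Several uncalled changes turned sign. For ATLO against outside-lesion, Mag was -0.0474 with quantile normalization, -0.0577 with equal medians, -0.25 with the higher floor, -0.24 with array weights and -0.36 with the actin covariate. In the same comparison Pmp22 was -0.0305 with equal medians, Mbp -0.22 and Erbb3 -0.11 with array weights, Sox10 0.19 with the actin covariate and 0.13 with probe sets averaged, and Mal 0.17 with probe sets averaged. Mal outside-lesion against wild type was 0.0554 with array weights. With 1 array left out, ranges for ATLO against outside-lesion were -0.26 to 0.61 for Erbb3, -0.51 to 0.28 for Mag, -0.59 to 0.0806 for Mal, -0.0858 to 0.53 for Mbp, -0.0584 to 0.23 for Pmp22 and -0.23 to 0.0178 for Sox10. They were -0.65 to 0.18 for Mbp in ATLO against wild type and -0.70 to 0.091 for Mag outside-lesion against wild type. The cause was not tested. Equal medians shifted the median log2 change by -0.118, 0.0561 and 0.174 in the 3 comparisons, and the share of calls that were higher was 44.1%, 56.0% and 87.3%, beside 56.3%, 49.9% and 52.8% as deposited.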

Other observations

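Genes listed for the nerve sheath and node were set beside the Schwann cell genes. Of the sheath list, Krt7, Osr2 and Sox9 were too dim to be tested. Of 5 tested perineurial and endoneurial genes, 2 were higher in ATLO than outside the lesion and 1 was higher than in wild type, where 19.8% and 13.4% of all genes were higher. Slc2a1, the glucose transporter of perineurial cells and of many dividing cells, averaged 1255 ± 183 in ATLO (SD, n = 4), 719 ± 94.8 outside the lesion (n = 4) and 551 ± 151 in wild type (n = 3). It was higher in ATLO than outside the lesion (log2 change 0.80 ± 0.18, limma adjusted p = 0.00453) and than in wild type (1.22 ± 0.20, limma adjusted p = 9.06e-04). Tagln2, an actin-binding protein of many cell types, was higher in ATLO than outside the lesion (0.75 ± 0.19, limma adjusted p = 0.00971). Apod, a lipocalin of endoneurial and other fibroblasts, was called in neither comparison of ATLO. Nor were Itgb4, a laminin receptor chain (log2 changes of -0.67 and -0.95), and Cldn1, a tight junction protein (0.03 and -0.76). Of nodal and paranodal genes, Cntn1, Ank3 and Epb41l3 were tested, and limma called 0 in each comparison, with 0 at an unadjusted p under 0.05. Mitf, a transcription factor of melanocytes and other cells, was higher in ATLO than outside the lesion (0.63 ± 0.15, limma adjusted p = 0.00529) and lower outside the lesion than in wild type (-0.69 ± 0.16, limma adjusted p = 0.0382). Dct, the other tested melanocyte gene, was called in no comparison and had its lowest mean in ATLO. It averaged 94.5 ± 35.7 in ATLO (SD, n = 4), 160 ± 69.8 outside the lesion (n = 4) and 147 ± 41.2 in wild type (n = 3).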
